A study of Sus scrofa with 16 samples.

Results

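Respiratory chain transcripts encoded by the mitochondrial genome were followed in the hippocampus of preterm pigs with and without necrotizing enterocolitis (NEC). The members were 7 genes, each taken as the entry of the expression table whose Ensembl identifier carries its symbol. They are ND3 (ENSSSCG00000018084), ND4 (ENSSSCG00000018087), ND5 (ENSSSCG00000018091), ND6 (ENSSSCG00000018092), CYTB (ENSSSCG00000018094), COX1 (ENSSSCG00000018075) and COX2 (ENSSSCG00000018078). They make up 7 of the 22815 entries of the table and 7 of the 13 protein-coding genes that RefSeq lists for the pig mitochondrial genome. The members were selected on measured values, namely the FPKM of COX1 in the 3 groups and of ND3 in Si-NEC and Co-NEC. These contrasts are therefore only described below, and no test of them is read as a result. Of the other mitochondrial protein genes, ATP6, a subunit of ATP synthase, was listed at 0 in all 16 pigs, and ND1, ND2, ND4L, COX3 and ATP8 were not analysed here.

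The respiratory chain passes electrons to oxygen and pumps protons across the inner mitochondrial membrane, and most of its subunits come from the nucleus while a small core comes from mitochondrial DNA. The ND genes encode the proton-pumping membrane subunits of complex I, CYTB encodes cytochrome b of complex III, and COX1 and COX2 encode the catalytic core of complex IV, cytochrome c oxidase. Both strands of the mitochondrial genome are copied as long precursors that are cut at the tRNAs between the genes, so the level of each mature transcript depends on cutting and decay as well as on copying. ND6 is the single protein gene read from the strand opposite to the others. Neurons of the hippocampus, a region needed for memory, draw most of their ATP from this chain.

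The 16 pigs were Danish landrace x Large White x Duroc crosses, delivered preterm by cesarean section and reared in incubators for about a week. All received human donor milk in rising amounts, parenteral nutrition in falling amounts and sow plasma. The milk was of different types, and the labels do not say which pig received which. NEC arose spontaneously, so no pig was assigned to its group. The 6 pigs called Si-NEC had severe lesions of the small intestine, in some cases of the colon as well. The 5 Co-NEC pigs had severe lesions in the colon alone, and the 5 No NEC pigs had no visible lesion in any region. Each library came from the left hippocampus of 1 pig, and there were 7 females and 9 males.

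Expression was given as FPKM, fragments scaled to the length of the transcript and to the total of the library, a unit that allows levels of different genes to be set side by side. Counts and depths per pig are unknown. The summed FPKM was 544629 to 645197 in 14 pigs, and reached 823320 in Si-NEC pig 223-15 and 864931 in No NEC pig 230-15. The neuron markers found, STMN2 and SYT1, summed to 876 to 1643 FPKM over all pigs, and the hippocampal markers FIBCD1, PROX1 and ZBTB20 to 46.8 to 119 FPKM. The astrocyte marker ALDH1L1 was listed at 0 in every pig, while GFAP and SLC1A3 brought the astrocyte sum to at least 762 FPKM. Marker sums of muscle, a tissue rich in mitochondria, stayed between 4.04 and 10.1 FPKM. In such bulk tissue fewer cells or mitochondria and less RNA per mitochondrion cannot be told apart.

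The 6 members other than COX1 were above 0 in every pig and together made up 5.80% to 12.9% of a pig's summed FPKM. That share was 9.69% ± 2.2 (SD, n = 5) for No NEC, 8.55% ± 2.25 (SD, n = 5) for Co-NEC and 9.84% ± 2.34 (SD, n = 6) for Si-NEC. The levels kept nearly the same order from pig to pig. ND3 was above COX2 in 15 of 16 pigs, the exception being Co-NEC pig 545-14, although their ranges overlapped. COX2 was above ND4, ND4 above CYTB and CYTB above ND5 in 16 of 16 pigs, and over all pigs the ranges of CYTB and ND5 did not overlap. The place of ND6 varied most. It was below CYTB in 15 of 16 pigs and above ND5 in 12 of 16, and these 12 held 7 of the 7 pigs numbered 223 to 231 and 5 of the other 9. The order is a description of FPKM, in which the transcript lengths of the annotation enter.

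**Figure D1:**
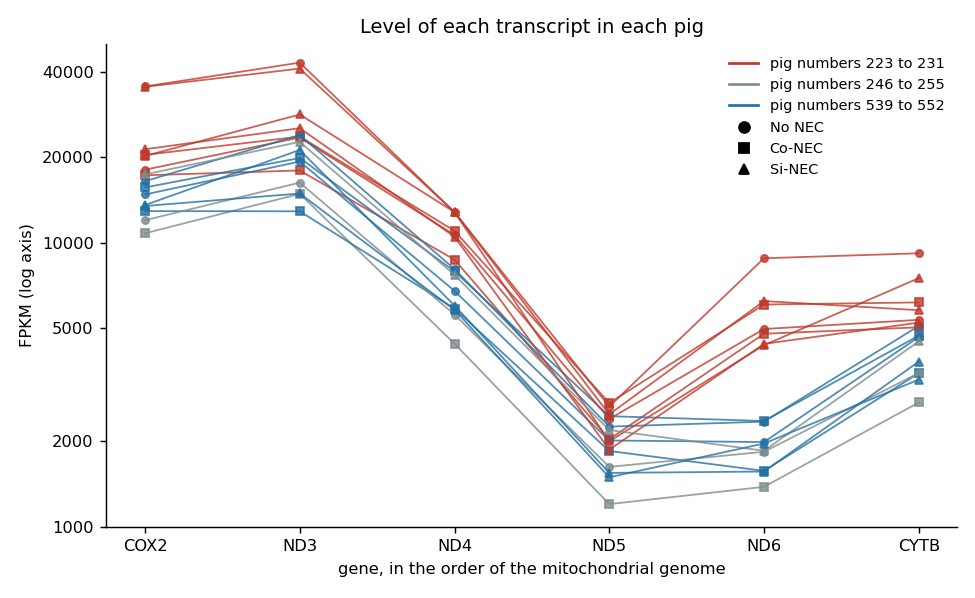
FPKM of the 6 members above 0 in every pig (y axis, log scale) against the genes in their order along the mitochondrial genome (x axis), with 1 line per pig, coloured by run of pig numbers and with the marker shape giving the group. At ND6 the 7 pigs numbered 223 to 231 lie at 4355 to 8809 FPKM, above the other 9 at 1382 to 2356.

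Among the complex I subunits ND3, a small subunit near the ubiquinone site, had the highest level. In No NEC pigs ND3 stood at 16259, 19284, 23430, 23912 and 42987 FPKM. In Co-NEC pigs it stood at 12889, 14846, 17944, 19853 and 23605 FPKM. In the 6 Si-NEC pigs it ran from 14889 to 40969 FPKM with a median of 23946. The highest ND3 values belonged to No NEC pig 230-15 and Si-NEC pig 223-15, and the range of the Co-NEC pigs overlapped that of both other groups. Group means were 25174 ± 10442 (SD, n = 5) for No NEC, 17828 ± 4206 (SD, n = 5) for Co-NEC and 25530 ± 8791 (SD, n = 6) for Si-NEC. The Si-NEC against Co-NEC difference, for which ND3 was chosen, was 0.48 on the log2 scale with an SE of 0.28, and by run of pig numbers it was 0.58, 0.61 and 0.15. Against No NEC the log2 difference of ND3 was 0.04 (SE 0.36, limma adjusted p = 1) for Si-NEC and -0.45 (SE 0.33, limma adjusted p = 0.812) for Co-NEC. The 95% intervals of both differences included 0, and that for Co-NEC against No NEC reached from -1.17 to 0.28.

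ND4 and ND5 encode the large proton-pumping subunits of complex I. ND4 stood at 5582, 6763, 8068, 10639 and 12802 FPKM in the No NEC pigs. Its values in the Co-NEC pigs were 4410, 5861, 7924, 8707 and 11002 FPKM. In Si-NEC it ran from 5800 to 12804 FPKM with a median of 9094. Each group thus held low and high pigs, and the high ones, from 8707 FPKM upward, were the 7 pigs with numbers between 223 and 231. Log2 differences of ND4 were 0.07 (SE 0.32) for Si-NEC against No NEC, -0.22 (SE 0.32) for Co-NEC against No NEC and 0.28 (SE 0.30) for Si-NEC against Co-NEC. Among the 6 members above 0 in every pig, ND5 had the smallest spread relative to its mean and was the lowest in 12 of 16 pigs, with 2187 ± 390 FPKM (SD, n = 5) for No NEC, 2051 ± 587 (SD, n = 5) for Co-NEC and 1930 ± 380 (SD, n = 6) for Si-NEC. Its log2 differences in the same order of comparisons were -0.18 (SE 0.19), -0.13 (SE 0.24) and -0.06 (SE 0.21).

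ND6, the complex I subunit read from the opposite strand, spread most of the 6. In No NEC pigs ND6 stood at 1836, 1987, 2344, 4965 and 8809 FPKM. In Co-NEC pigs the values were 1382, 1573, 2356, 4779 and 6054 FPKM. The 6 Si-NEC pigs ran from 1565 to 6228 FPKM with a median of 3159. In each group the pigs fell into a low and a high set with a wide gap between them, and no group lay apart from another. Group means were 3988 ± 2980 (SD, n = 5), 3229 ± 2079 (SD, n = 5) and 3394 ± 1884 (SD, n = 6) in the order No NEC, Co-NEC and Si-NEC. The log2 difference was -0.14 (SE 0.49) for Si-NEC against No NEC, -0.27 (SE 0.54) for Co-NEC against No NEC and 0.13 (SE 0.47) for Si-NEC against Co-NEC, and these were the widest errors among the 6. Whether the counting used strand is not given in the sources used here, and if it did not, reads of ND6 and of the opposite strand at the same place cannot be told apart.

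CYTB, the mitochondrially encoded subunit of complex III, lay between ND4 and ND5. Its FPKM was 3477 to 9171 in No NEC (mean 5548 ± 2149, SD, n = 5), 2738 to 6159 in Co-NEC (mean 4422 ± 1343, SD, n = 5) and 3296 to 7498 in Si-NEC (mean 5018 ± 1515, SD, n = 6). The ranges overlapped throughout. The log2 difference of CYTB was -0.12 (SE 0.29) for Si-NEC against No NEC, -0.31 (SE 0.30) for Co-NEC against No NEC and 0.19 (SE 0.26) for Si-NEC against Co-NEC.

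COX2 carries the copper centre that takes electrons from cytochrome c into complex IV. In No NEC pigs COX2 stood at 11992, 14774, 16447, 18050 and 35437 FPKM. Co-NEC pigs had 10782, 12906, 15633, 17256 and 20359 FPKM. The Si-NEC pigs ran from 13454 to 35333 FPKM with a median of 18777. As with ND3, pigs 230-15 and 223-15 stood far above the rest of their groups, and the Co-NEC pigs did not reach such levels. Means were 19340 ± 9273 (SD, n = 5), 15387 ± 3729 (SD, n = 5) and 20200 ± 8098 (SD, n = 6) for No NEC, Co-NEC and Si-NEC. Log2 differences were 0.09 (SE 0.36), -0.26 (SE 0.34) and 0.34 (SE 0.29) for Si-NEC against No NEC, Co-NEC against No NEC and Si-NEC against Co-NEC.

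COX1 encodes the subunit of complex IV that binds oxygen, and it was listed at 0 in 11 pigs, namely 5 of 5 No NEC and 6 of 6 Si-NEC pigs. In the 5 Co-NEC pigs it stood at 9929, 12599, 13477, 14981 and 15986 FPKM, a mean of 13394 ± 2339 (SD, n = 5). There its level was 0.781 to 0.976 times that of COX2 in the same pig, below COX2 and ND3 and above ND4 in 5 of 5 pigs. The pigs listed at 0 had COX2, the neighbouring gene of the same enzyme, at up to 35437 FPKM. A cell with active complex IV needs this transcript, and an exact 0 in such a table can be a failed estimate, so no fold change is given. The Co-NEC pigs with COX1 came from all 3 runs of pig numbers and from both sexes. COX1 was the single entry of the table above 0 in exactly these 5 pigs, and a value of exactly 0 in some pig occurred for 49 of the 4038 entries whose mean exceeded 20 FPKM. COX1 made the non-overlapping member count 1 of 7 in Co-NEC against No NEC and 1 of 7 in Si-NEC against Co-NEC, where 0.464% and 0.545% of the 13590 entries tested had group ranges that did not overlap. Since COX1 was chosen for this pattern, nothing is read from those counts.

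**Figure D2:**
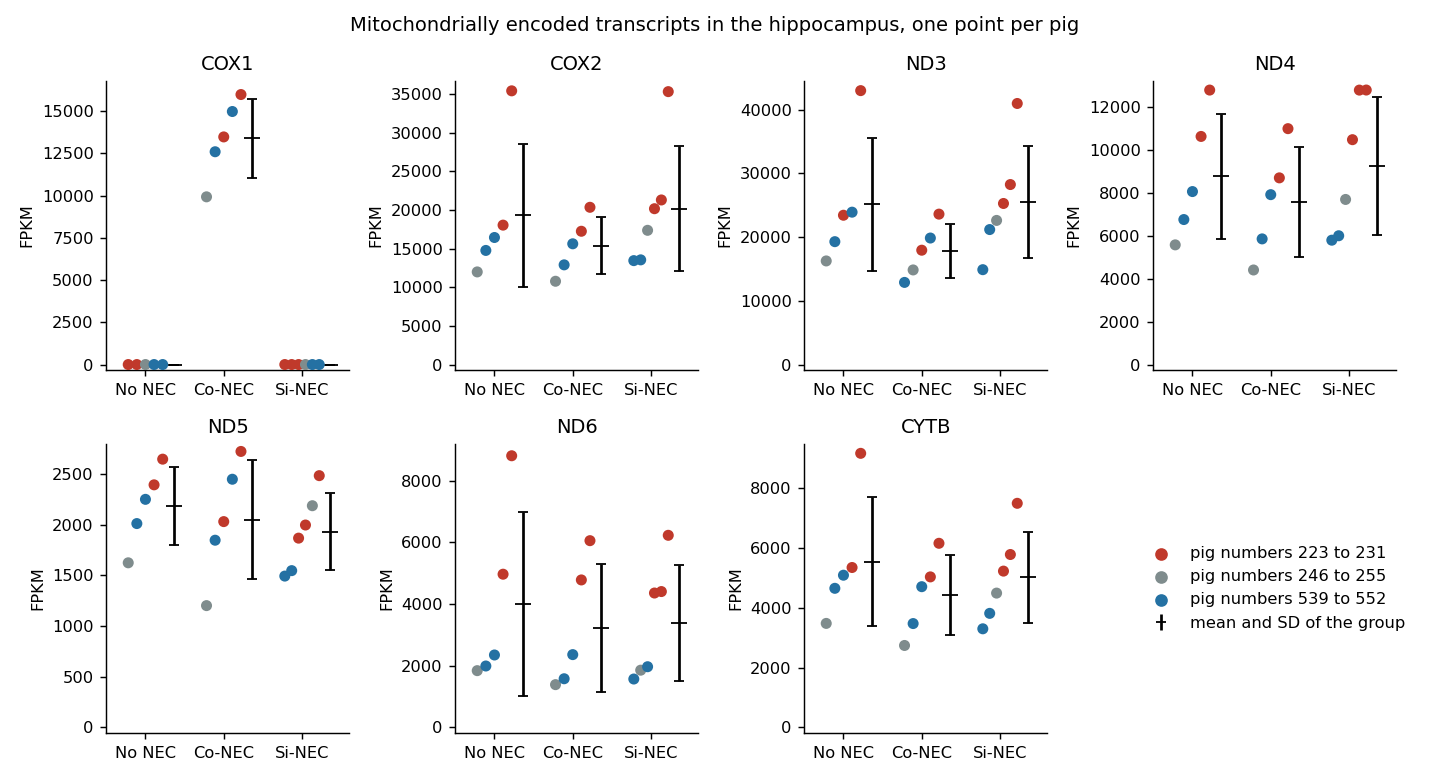
FPKM of each of the 7 members (y axis, linear, from 0) by group (x axis), with 1 point per pig coloured by run of pig numbers, ordered by value within a group, and a bar for the group mean with its SD. COX1 is at 0 in the 11 No NEC and Si-NEC pigs, while the 5 Co-NEC pigs span 9929 to 15986 FPKM. The ranges of the other 6 members overlap between groups and in each group the points of pigs 223 to 231 are the highest for ND4 and ND6.

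To ask whether the members differed with the site of NEC, each pair of groups was compared with limma on log2(FPKM + 0.5), with adjustment over the 13590 entries tested and the threshold of 0.2 that the study used. For the 6 members above 0 in every pig this gave 17 tests, with ND3 in Si-NEC against Co-NEC left out because it chose the member. None of the 17 passed, and the smallest limma adjusted p was 0.812. At an unadjusted p under 0.05 the count was also 0 of 17, and in two-sided exact permutation tests it was 0 of 17, with the lowest p at 0.151 for ND3 in Co-NEC against No NEC. Exact tests can go down to 0.00216 for 6 against 5 pigs and to 0.00794 for 5 against 5. Over all tested entries 0.00736% passed in Si-NEC against No NEC, 0.00736% in Co-NEC against No NEC and 0.0147% in Si-NEC against Co-NEC, and 2.61%, 3.44% and 5.64% had an unadjusted p under 0.05. COX1 is the only entry behind that share in Co-NEC against No NEC and 1 of the 2 entries behind it in Si-NEC against Co-NEC. These comparisons chose COX1, and nothing is read from its count. In Si-NEC against No NEC 3 of 6 members were higher, with a median log2 difference of -0.04 against 0.02 over all tested entries. All 6 were lower in Co-NEC than in No NEC, with a median of -0.26 against 0.01 over all entries. This rested in good part on No NEC pig 230-15, without which the log2 difference was -0.0119 for COX2, -0.23 for ND3, -0.0634 for ND4, -0.0524 for ND5, 0.0903 for ND6 and -0.11 for CYTB. In Si-NEC against Co-NEC, which shares its Co-NEC pigs with the previous comparison, 5 of 6 were higher, with a median of 0.24. These signs are values of members that vary together across pigs, not separate pieces of evidence, and none of those tested passed. Of the neutrophil markers, 2 of 4 were found, with CSF3R at 0 in every pig, and S100A8 brought their sum to 2.21 to 25.0 FPKM in Si-NEC, 0.734 to 2.31 in Co-NEC and 0.764 to 3.08 in No NEC, and its part in the comparisons was not tested.

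**Figure D3:**
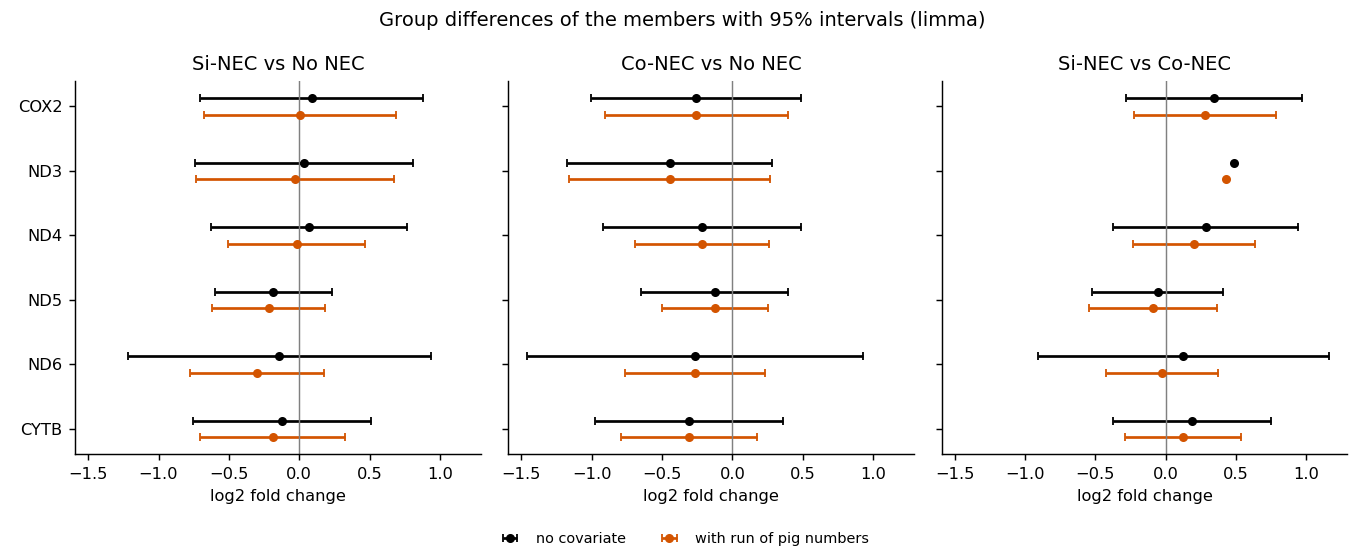
Log2 fold change of the 6 members (x axis) in the 3 comparisons with its 95% interval from limma, without a covariate (black) and with the run of pig numbers as a term (orange). ND3 in Si-NEC against Co-NEC, which chose the member, is drawn with no interval. The intervals drawn include 0, and those of ND6 narrow most with the run term, from an SE of 0.54 to 0.22 in Co-NEC against No NEC.

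The levels of ND6 and ND4 divided the pigs by their numbers, which the labels give with a suffix of 14 or 15. The numbers form 3 runs of neighbours, 223 to 231 with 7 pigs, 246 to 255 with 3 and 539 to 552 with 6, and each run held pigs of all 3 groups. The labels do not say what a number or suffix marks, and the split was noticed in the members' values, so it is described with no test. ND6 was at 4355 to 8809 FPKM in pigs 223 to 231 and at 1382 to 2356 FPKM in the other 9, a ratio of geometric means of 2.98. The same ratio was 2.76 among Si-NEC, 3.12 among Co-NEC and 3.23 among No NEC pigs. The 3 pigs of run 246 to 255, which share the suffix 15 with the first run, had ND6 at 1382, 1836 and 1851 FPKM, within the range of 1565 to 2356 of the suffix 14 pigs or below it.

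The other members followed to unequal degrees. Between pigs 223 to 231 and the other 9 the ratio of geometric means was 1.77 for ND4, 1.65 for COX2, 1.59 for CYTB, 1.53 for ND3 and 1.27 for ND5. ND4 and ND6 did not overlap between these pigs and the rest, 2 of 6 members, where 0.265% of the tested entries were higher in every pig of the run and 0.456% were free of overlap in either direction. Within each of the 3 groups, COX2, ND4, ND6 and CYTB were higher without overlap in the run, 4 of 6 members against 0.839% of the tested entries. Since the split was noticed in the members' own values, nothing is read from these counts. ND5 and ND3 overlapped in 2 of the 3 groups. Over all tested entries the median log2 difference between these pigs and the rest was 0.03. The share of summed FPKM held by the 6 members was 9.996% to 12.9% in the run and 5.80% to 9.63% in the other pigs.

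Some of the members also stood in other proportions to each other. The ratio of ND6 to ND5, neighbours on opposite strands, was 2.07 to 3.33 in pigs 223 to 231 and 0.846 to 1.31 in the other 9. The ratio of ND4 to ND5, on the same strand, was 4.04 to 6.41 in the run and 3.17 to 3.88 in the other pigs. Such ratios within a pig are free of its overall scale, and neither pair of ranges overlapped. ND6 to CYTB was 0.581 to 1.08 against 0.410 to 0.596, which overlapped narrowly. CYTB to ND5 was 2.23 to 3.75 against 1.88 to 2.46, which overlapped. ND3 to COX2, at 1.04 to 1.40 in the run, lay within the 0.999 to 1.56 of the other pigs. The split was noticed in the members' own values, so these ratios are a description only. Of the marker lists, microglia (3 of 4 genes found, C1QA, CSF1R and P2RY12) summed to 43.9 to 92.2 FPKM in the run and 32.3 to 62.2 in the other pigs, astrocytes (3 of 4 found) to 867 to 1260 against 762 to 943, and neurons (2 of 4 found) to 955 to 1643 against 876 to 1254. Choroid plexus (1 of 4 found, TTR) had 7.62 to 23.4 FPKM in the run and 0 to 25.3 in the other pigs, neutrophils (2 of 4 found, CSF3R at 0) 0.918 to 21.2 against 0.734 to 25.0, and oligodendrocytes (3 of 4 found) 1169 to 2648 against 1279 to 2768. On the log2 scale the median run difference was 1.20 for choroid plexus, 0.61 for neutrophils, 0.47 for microglia, 0.15 for astrocytes, 0.14 for neurons and -0.31 for oligodendrocytes. The other 4 marker lists, hippocampal, endothelial, erythroid and muscle, lay between -0.19 and 0.09. The ranges overlapped for each list, and their part in the difference was not tested.

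**Figure D4:**
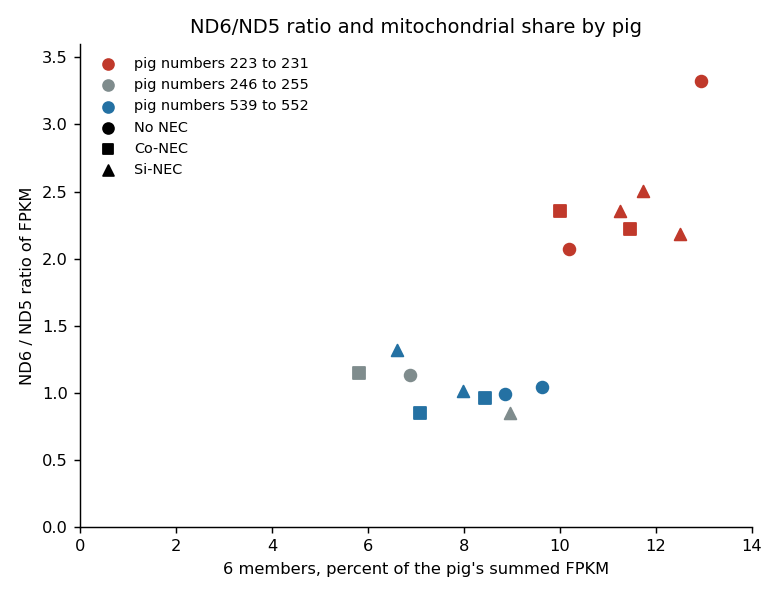
Ratio of ND6 to ND5 FPKM (y axis) against the percent of a pig's summed FPKM held by the 6 members above 0 in every pig (x axis), with 1 point per pig, colour for the run of pig numbers and shape for the group. Pigs 223 to 231 lie at a ratio of 2.07 to 3.33 and a share of 9.996% to 12.9%, the other 9 at 0.846 to 1.31 and 5.80% to 9.63%, and all 3 groups occur in both areas.

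With the run as a term, which was added after the values were seen, the group differences had errors of 0.16 to 0.32 and no member passed in the contrasts tested. The ND6 difference for Co-NEC against No NEC remained -0.27, with an SE of 0.22 in place of 0.54 (limma adjusted p = 0.750), and for Si-NEC against No NEC it was -0.30 (SE 0.21, limma adjusted p = 1). Single runs held 2 against 2, 1 against 1 and 2 against 2 pigs. Within them each of the 6 members was lower in Co-NEC than in No NEC in 3 of 3 runs, by log2 values of -0.62 to -0.000547. In run 223 to 231 the No NEC pigs were 228-15 and 230-15, and 230-15 was the higher for each member. Pig 228-15 lay between the 2 Co-NEC pigs of that run for each member, for COX2 at 18050 FPKM against 17256 and 20359. Because the members vary together across pigs, these signs are not separate pieces of evidence. The ND3 difference of Si-NEC against Co-NEC was above 0 in 3 of 3 runs. That contrast chose ND3 in these same pigs, so nothing is read from its signs. The remaining within-run signs of Si-NEC against Co-NEC were mixed for the other 5 members, and those of Si-NEC against No NEC were mixed for all 6. These within-run values have no test.

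Across the 16 pigs the members varied together, with Pearson r between their log2 values of 0.594 for ND3 with ND5 to 0.949 for COX2 with CYTB. Because the pigs fall into sets by number, the values within sets are given too. COX2 with CYTB stood at r = 0.927 in the 7 pigs of the run and 0.913 in the other 9, and ND3 with ND5 at 0.167 and 0.595. ND5 with COX2 was at 0.0421 in the run against 0.879 outside it. The values of a pig share 1 library and its scaling.

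Entries most like the mean log2 level of the 6 members were ranked by Pearson r over the 16 pigs. The named genes with the highest r were ST6GALNAC3, a sialyltransferase, with 0.913, MED7, a Mediator subunit, with 0.879, and PKIB, an inhibitor of protein kinase A, with 0.871. HMGN4, a nucleosome-binding protein, followed with 0.863 and GMPR2, a GMP reductase, with 0.862. Within the 7 pigs of run 223 to 231 and the other 9 these were 0.946 and 0.570 for ST6GALNAC3, 0.830 and 0.758 for MED7, 0.917 and 0.721 for PKIB, 0.802 and 0.826 for HMGN4, and 0.148 and 0.736 for GMPR2. All 5 were low next to the members, at 4.84 to 24.8 FPKM. Entries with no symbol came closer still, ENSSSCG00000018066 with r = 0.983 and ENSSSCG00000018070 with 0.964. In number, both identifiers come shortly before that of COX1, ENSSSCG00000018075. Mitochondrial genes were left out of the ranking by symbol, which these entries lack. Whether they too are mitochondrially encoded was not tested, so they are not read as genes of another kind that follow the members. Both were split by pig number as ND6 was, ENSSSCG00000018066 at 3202 to 6707 FPKM in the run against 1496 to 2902, and ENSSSCG00000018070 at 4066 to 8011 against 1029 to 2006.

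Sex and suffix were also compared, in fits over 16 pigs with group as a term. Between males and females 4 of 6 members were higher in males, with log2 differences of the 6 from -0.02 to 0.17, and the smallest limma adjusted p was 0.9999, where 0.0515% of all tested entries passed. Pigs with suffix 15 were on average higher than those with suffix 14 for 6 of 6 members, by 0.13 to 0.99, with ND6 at 0.99 (SE 0.37, limma adjusted p = 0.915). Suffix 15 joins runs 223 to 231 and 246 to 255, and only the first had higher means than the suffix 14 pigs. Mean FPKM in run 246 to 255 (n = 3) was below that of the suffix 14 pigs (n = 6) for 6 of 6 members. For ND6 it was 1690 against 1965 and for COX2 13384 against 14461, with overlapping ranges. No member passed, and 0.0221% of all entries did. At an unadjusted p under 0.05 the counts were 0 of 6 for sex and 1 of 6, ND6, for the suffix, with 3.25% and 5.11% of all entries.

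The nuclear genes that work with the members were taken as 4 lists. Partner subunits of complexes I, III and IV had 24 of 43 genes tested, and 0 of 24 passed the threshold in any comparison. Of these, 8 of 24 had differences above 0 for Si-NEC against No NEC (median log2 difference -0.08), 2 of 24 for Co-NEC against No NEC (median -0.19) and 20 of 24 for Si-NEC against Co-NEC (median 0.11). The medians over all tested entries were 0.02, 0.01 and 4.8e-05 in the same order. The subunits were measured in the same pigs, and the last 2 comparisons share their Co-NEC pigs. These counts of signs are therefore not separate pieces of evidence. At an unadjusted p under 0.05 there were 2, both in Si-NEC against Co-NEC, where 5.64% of all tested entries had such a p. COX8A, a small subunit of complex IV, had 634 ± 136 FPKM (SD, n = 6) for Si-NEC and 499 ± 60.1 (SD, n = 5) for Co-NEC, with a log2 difference of 0.33 (SE 0.14, limma adjusted p = 0.867). NDUFA2, an accessory subunit of complex I, had 144 ± 31.7 FPKM (SD, n = 6) and 116 ± 6.24 (SD, n = 5), with a difference of 0.29 (SE 0.13, limma adjusted p = 0.867). Its Si-NEC pigs at 124 to 207 FPKM lay above its Co-NEC pigs at 108 to 122. In this comparison 0.545% of all tested entries had group ranges that did not overlap. NDUFA2 was named for its small p in these same pigs, so nothing is read from its separation. UQCRC2, a core subunit of complex III, had 26.9 ± 6.21 FPKM (SD, n = 6) for Si-NEC and 33.5 ± 6.76 (SD, n = 5) for No NEC, with overlapping ranges. By pig number, 24 of 24 partner subunits were higher in pigs 223 to 231 (median log2 difference 0.23), and 0 of 24 were free of overlap with the other pigs. Over all entries 55.3% were higher in that run.

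The 3 other lists held genes for upkeep and copying of mitochondrial DNA, for processing of mitochondrial RNA and for assembly of complex IV. They had 8 of 18, 9 of 15 and 8 of 22 genes tested, and 0 passed in any comparison. FASTK, of which a mitochondrial form is needed for mature ND6 RNA, had 27.4 ± 4.70 FPKM (SD, n = 6) for Si-NEC and 20.6 ± 2.75 (SD, n = 5) for Co-NEC. That log2 difference was 0.40 (SE 0.13, limma adjusted p = 0.851), with an unadjusted p of 0.00778, and against No NEC the difference of Co-NEC was -0.48 (SE 0.17, limma adjusted p = 0.812). Both rest on the same Co-NEC pigs. LRPPRC, which stabilises mitochondrial mRNAs, had 20.4 ± 2.21 FPKM (SD, n = 6) for Si-NEC and 23.3 ± 2.15 (SD, n = 5) for Co-NEC. GRSF1, a protein of mitochondrial RNA granules that binds ND6 RNA, had 34.1 ± 3.78 in Co-NEC and 29.7 ± 4.29 in No NEC (SD, n = 5 each).

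NRF1, a transcription factor for nuclear respiratory genes, had 5.78 ± 0.57 FPKM in Co-NEC and 6.94 ± 1.38 in No NEC (SD, n = 5 each). POLG, the mitochondrial DNA polymerase, had 15.2 ± 1.90 and 16.9 ± 1.40 in the same groups, and MTERF1, which ends mitochondrial transcripts, had 5.38 ± 1.52 (SD, n = 6) for Si-NEC and 4.45 ± 1.81 (SD, n = 5) for No NEC. All overlapped between groups. Of the assembly factors, COX16 had 14.6 ± 6.37 FPKM (SD, n = 6) for Si-NEC and 10.7 ± 1.06 (SD, n = 5) for Co-NEC. COX15, an enzyme of heme A synthesis, had 5.24 ± 0.582 in Co-NEC and 4.52 ± 0.582 in No NEC (SD, n = 5 each). COX10, the enzyme before it, had 2.1 ± 0.327 (SD, n = 6) for Si-NEC and 2.33 ± 0.346 (SD, n = 5) for No NEC. None of these differences was past the limma threshold.

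**Figure D5:**
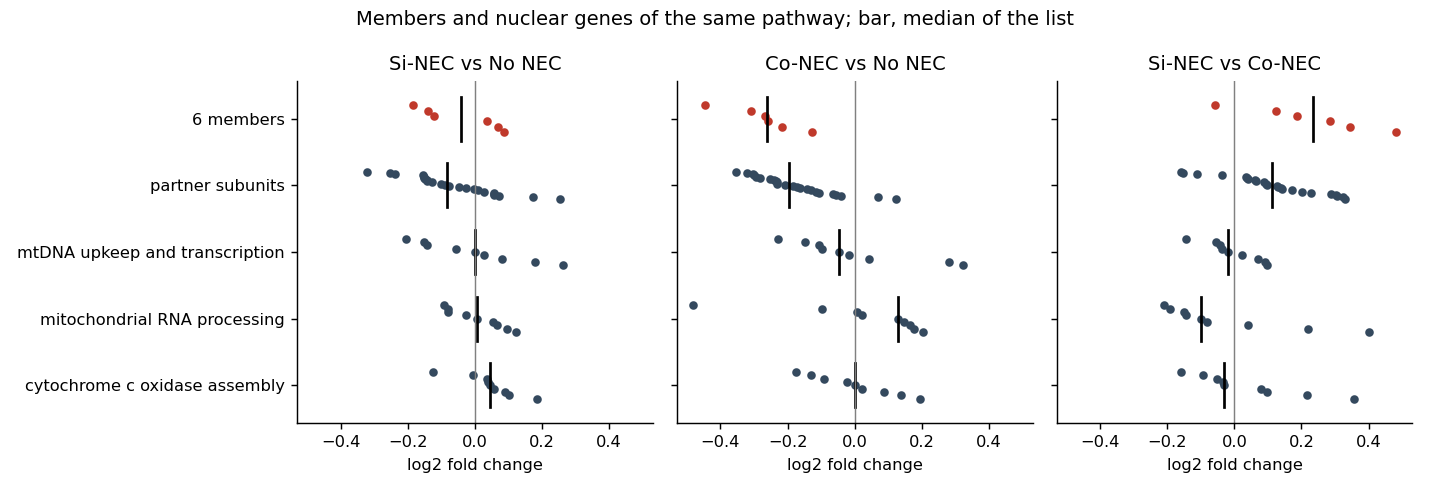
Log2 fold change (x axis) of the 6 members (red) and of the tested genes of the 4 nuclear lists (dark) in the 3 comparisons, with 1 point per gene entry and a bar at the median of the list. Partner subunits lie mostly below 0 in Co-NEC against No NEC (22 of 24) and mostly above 0 in Si-NEC against Co-NEC (20 of 24), and 0 entries of the 4 lists passed the threshold. These comparisons share their Co-NEC pigs, so the counts are not separate pieces of evidence.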

How the data were processed

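RNA of the left hippocampus of 16 pigs was isolated with a lipid tissue kit, made into NEBNext Ultra libraries and sequenced in pairs on an Illumina HiSeq. The authors trimmed the reads, aligned them to Sscrofa10.2 with TopHat2 2.1.1 and estimated FPKM with Cufflinks 2.2.1, and the deposited table holds these FPKM values per gene and pig, 24594 rows with 21956 identifiers. No counts were used, and low values showed no common step between pigs (at most 9.55% of the values shared 1 ratio), so depth is unknown and no counting error is given. Any scaling between pigs is not given in the sources used here.

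Groups and sexes came from the labels. The 1779 rows identical to another row were dropped. Symbols came from a reference table (11001 identifiers matched). Testing used the 13590 entries that averaged 0.5 FPKM or more, as log2(FPKM + 0.5), and fold changes are on that scale. Each pair of groups was fitted with limma 3.58.1 in R 4.3.3 (eBayes with trend), with no covariate, Benjamini-Hochberg adjustment over all tested entries and a threshold of 0.2, after the study's own. An exact two-sided permutation test of the mean log2 value was added for single members. Sex and number suffix were fitted with group as a term. The fits were tested on simulated data. Plots were made in Python 3.11.15 with matplotlib 3.10.9.

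The genes named are the 7 members, other mitochondrial genes found, for each nuclear list the 3 genes with the smallest p among the leading 2 of each comparison, and the 5 named entries and 2 unnamed entries most like the members by Pearson r, of which the unnamed ones were added after their values were seen. The members, lists and tests were chosen with earlier results of these data known. The runs of pig numbers, a new run starting where consecutive numbers differ by more than 10, were chosen after seeing the data. Alternatives were other pseudocounts, filters, scalings, variance models, pig weights, thresholds and covariates, and leaving out pigs. RefSeq gave the gene order only, since its build differs from that of the table. The replicates are separate pigs. The study delivered its pigs from several sows, and the labels do not give the litter. Any littermates were therefore tested as independent pigs.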

Additional observations from a re-analysis of the deposited data

Results flagged for a closer look

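In 19 sets of 1 member in 1 group, 3 values stood apart from the rest of their group by a gap too wide for Dixon's 95% criterion, which chance alone meets in about 1 of 20 sets. COX2 in Si-NEC pig 223-15 was 35333 FPKM, with the next pig at 21308. COX2 in No NEC pig 230-15 was 35437 FPKM, with the next pig at 18050. ND3 in the same No NEC pig was 42987 FPKM, with the next at 23912. These pigs had the highest summed FPKM of the 16, and both carry numbers between 223 and 231. Without both pigs the log2 difference of COX2 was 0.15 for Si-NEC against No NEC and -0.0119 for Co-NEC against No NEC, and that of ND3 was 0.10 and -0.23.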

How the results depend on the processing

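Of 768 values recomputed for single members, 696 kept direction and side of the threshold, 70 changed sign, 56 of them when 1 pig was left out, and 2 came past the threshold. Leaving aside the contrasts that chose COX1 and ND3, the number of members past it was 0 in each group comparison and for sex in all settings run. For the suffix it was 0 except with array weights, where it was 2, ND4 and ND6. The causes of these shifts were not tested. With array weights ND6 turned to 0.32 in Si-NEC against No NEC and 0.12 in Co-NEC against No NEC, and males against females turned to -0.000714 for ND3, -0.0713 for ND4 and -0.0132 for CYTB. With the run of pig numbers Si-NEC against No NEC turned to -0.0322 for ND3 and -0.0172 for ND4, and ND6 in Si-NEC against Co-NEC to -0.0288. Without pigs 223-15 and 230-15 together ND6 turned to 0.105 in Si-NEC against No NEC and 0.0903 in Co-NEC against No NEC. With equal sums of the entries that bear no mitochondrial gene symbol the log2 difference turned to 0.0188 for ND5 in Co-NEC against No NEC. In this setting that of ND6 turned to -0.0318 in Si-NEC against Co-NEC and to 0.000445 in males against females. With no group term ND3 in males against females turned to -0.00988. Leaving out 1 pig at a time, Si-NEC against No NEC ranged from -0.0904 to 0.33 for COX2, -0.11 to 0.25 for ND3, -0.0790 to 0.22 for ND4, -0.36 to 0.22 for ND6 and -0.27 to 0.0783 for CYTB. Co-NEC against No NEC ranged from -0.40 to -0.0119 for COX2, -0.58 to -0.23 for ND3, -0.37 to -0.0382 for ND4, -0.46 to -0.11 for CYTB, -0.24 to 0.0529 for ND5 and -0.56 to 0.0903 for ND6, and Si-NEC against Co-NEC from -0.24 to 0.0588 for ND5 and -0.12 to 0.41 for ND6. Males against females ranged from -0.15 to 0.13 for COX2, -0.10 to 0.14 for ND3, -0.13 to 0.12 for ND4, -0.23 to 0.16 for ND6 and -0.0431 to 0.20 for CYTB. None of these passed the threshold, and the 95% intervals of the main comparisons reach as far as -1.46 for ND6. No paired analysis was possible because the labels do not give the litter of a pig or any other pairing between groups. The depth is unknown, so the part of counting error in the spread cannot be given.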
